A study of Mus musculus with 18 samples.

Results

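A set of 9 genes that mark retinal amacrine cells or make and carry their transmitters was followed: Gad1, Gad2, Slc32a1, Slc6a9, Tfap2a, Tfap2b, Pax6, Calb2 and Th. They were found by matching the Ensembl gene identifiers of the count table to mouse symbols, and all 9 were present among 54532 genes. The 18 libraries came from rd1 (FVB) mice at postnatal day 30, an inbred model in which a Pde6b mutation kills the rod photoreceptors, so every group shares a degenerating retina. The TGFB1 mice had received subretinal AAV8-GFP + AAV8-TGFB1, and the GFP mice AAV8-GFP alone. After papain dissociation of the retinas, microglia were sorted by antibody staining from all remaining cells (non-microglia), and polyA RNA of each was made into libraries with a modified Smart-Seq2 protocol. There were 2 TGFB1 non-microglia, 2 GFP non-microglia, 7 TGFB1 microglia and 7 GFP microglia libraries. The sources used here give neither the promoters of the vectors nor whether a library is 1 animal or a pool. With 2 libraries a group, p-values for non-microglia rest on the spread of so few libraries, and that spread may be technical.

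Amacrine cells are the inhibitory interneurons of the inner retina, which shape the signal passed from bipolar to ganglion cells. Most release GABA or glycine, and small subtypes add dopamine, acetylcholine or a peptide. Their GABA is made by the glutamate decarboxylases encoded by Gad1 and Gad2 and loaded into vesicles, like glycine, by the transporter encoded by Slc32a1, while Slc6a9 encodes the glycine transporter GlyT1 of glycinergic amacrine cells. Tfap2a, Tfap2b and Pax6 encode transcription factors of amacrine development and identity, Calb2 encodes the calcium-binding protein calretinin, and Th encodes tyrosine hydroxylase, the rate-limiting enzyme of dopamine synthesis.

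Total counts per library ran from 2378669 to 2392931 in TGFB1 non-microglia, from 2318212 to 2604930 in GFP non-microglia, from 1582451 to 3044182 in TGFB1 microglia and from 1766307 to 3064027 in GFP microglia. Levels below are counts scaled to 1e+06 per library (CPM), with library sizes scaled together over all 18 libraries, and a count of 0 allows up to 3 counts, which is 0.881 to 1.01 CPM in a non-microglia library. The treatment label was borne out in non-microglia, where Tgfb1 had 462 and 402 counts in TGFB1 libraries and 0 and 0 in GFP libraries (edgeR quasi-likelihood adjusted p = 3.71e-15). In microglia, which were not the place of this check, its log2 fold change was 0.20 (edgeR adjusted p = 0.931). The fractions were separate by their markers: 8 microglia genes summed to a mean of 57.5 CPM in TGFB1 non-microglia and 65.0 CPM in GFP non-microglia, against 44040 CPM in TGFB1 microglia and 42976 CPM in GFP microglia.

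The amacrine label was carried by few reads. In all 4 non-microglia libraries, 4 of the 9 genes (Gad1, Slc6a9, Tfap2b and Pax6) had more than 3 counts, and 3 (Slc32a1, Tfap2a and Th) had 3 or fewer. Pax6 and Slc6a9 together made up 90.99% to 96.37% of the reads on the 9 genes in each of these libraries. Pax6 is not confined to amacrine cells, being also known from Müller glia, horizontal and ganglion cells of the mouse retina. The genes are therefore called by their symbols below, and which cells their RNA came from was not tested. In these bulk libraries, fewer amacrine cells and less RNA per cell cannot be told apart.

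**Figure D1:**
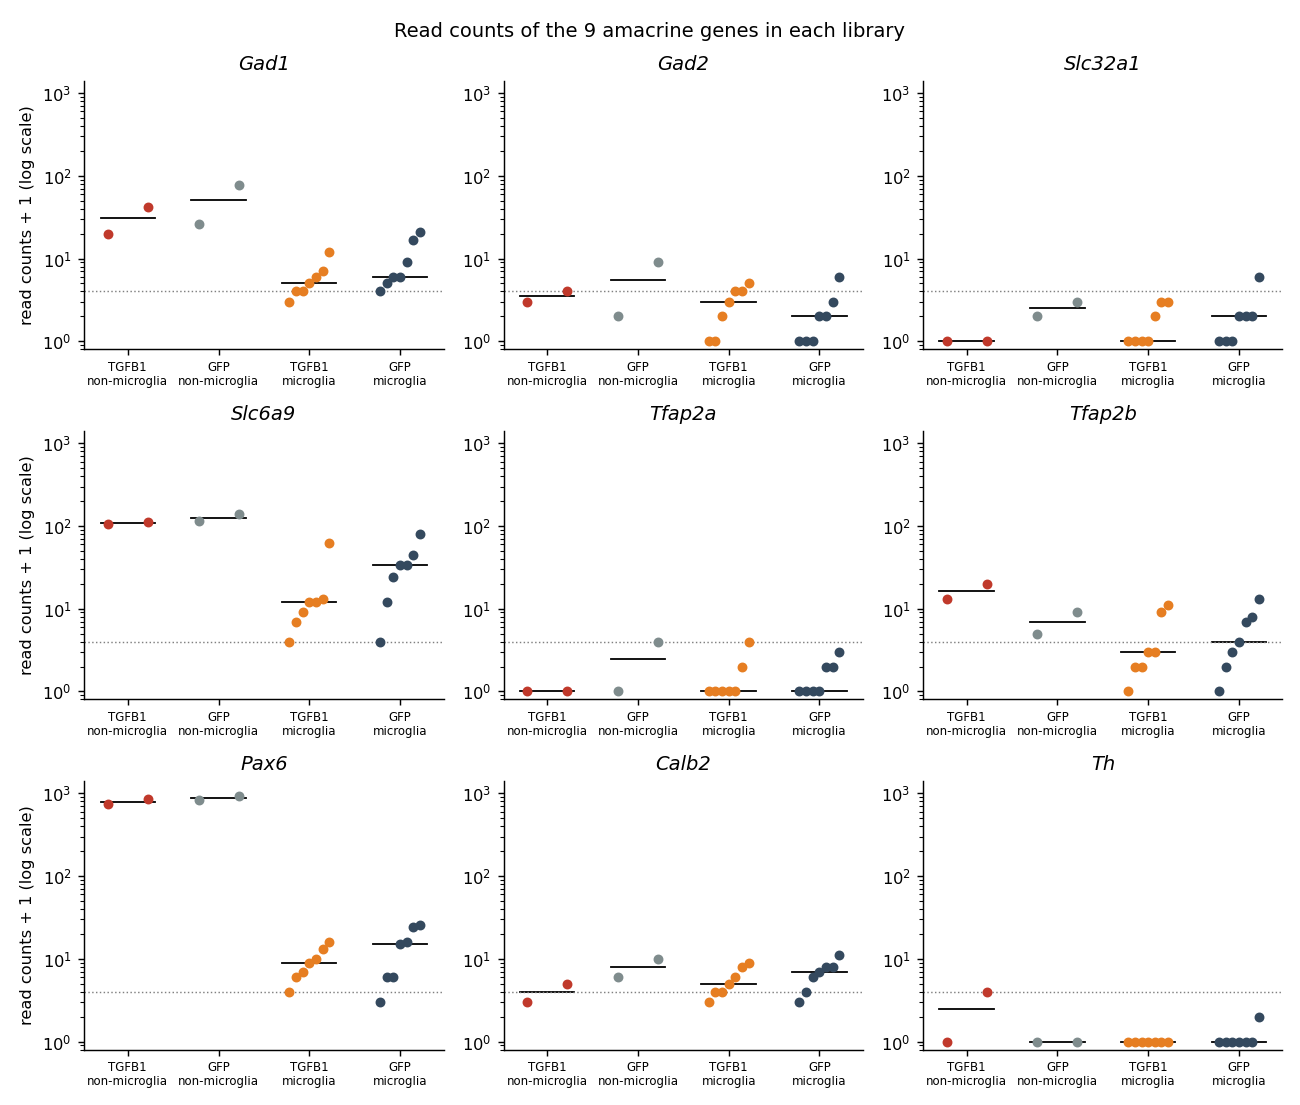
Read counts plus 1 (log axis) of each gene in every library, 1 point a library, by group; the dotted line marks the floor of 3 counts. Pax6 has 737 to 934 counts in the 4 non-microglia libraries and 2 to 25 in the 14 microglia libraries, while Gad2, Slc32a1, Tfap2a and Th have 8 or fewer counts in every library.

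Among the GABA genes, only Gad1 was well above the floor. Gad1 (ENSMUSG00000070880, chromosome 2, 70553072 to 70602014, plus strand, GRCm38, GENCODE M21) had 41 and 19 counts in TGFB1 non-microglia, against 76 and 25 in GFP non-microglia. In each treatment replicate 1 was the higher library and the groups overlapped. Mean levels were 9.77 ± 5.09 CPM in TGFB1 and 15.4 ± 9.83 CPM in GFP non-microglia (SD, n = 2 each). The log2 fold change of TGFB1 over GFP was -0.66 ± 0.466 (SE), with a 95% interval of -1.68 to 0.355, and did not pass (edgeR quasi-likelihood adjusted p = 0.852). Without GFP replicate 1 the value turned to 0.21, and without TGFB1 replicate 1 it was -1.32.

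Gad2 (ENSMUSG00000026787, chromosome 2, 22622205 to 22693874, plus strand), the second GABA-synthesizing enzyme, had 2 and 3 counts in TGFB1 non-microglia and 8 and 1 in GFP non-microglia. Slc32a1 (ENSMUSG00000037771, chromosome 2, 158610767 to 158615748, plus strand), the vesicular transporter that both GABA and glycine neurons need, had 0 and 0 counts in TGFB1 and 2 and 1 in GFP non-microglia. Both genes were too low for the filter of the test, and no change was detectable at this depth. An antisense gene, Gm14205, shares 697 exon bases (24.9%) with Slc32a1, so even these few counts may not all be its own. The higher of the Gad2 counts and of the Slc32a1 counts came from GFP replicate 1. This library, which had the most reads of the 4 non-microglia libraries (2604930), had the highest CPM for 6 of the 9 genes. Among these, Gad2, Slc32a1, Tfap2a and Calb2 had 9 or fewer counts in it. The share of all genes highest in this library was not computed, so 6 of 9 is not a result about the 9 genes. GFP replicate 1 also had the highest summed level of 6 endothelial and pericyte genes, 1949.5 CPM, against 1328.5 CPM in GFP replicate 2. TGFB1 non-microglia had 1446 and 1784 CPM. Whether the endothelial and pericyte level had a part in the Gad1 values was not tested.

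Slc6a9 (ENSMUSG00000028542, chromosome 4, 117834506 to 117875198, plus strand), the glycine transporter gene, was the second most abundant. It had 112 and 104 counts in TGFB1 non-microglia, against 137 and 114 in GFP non-microglia. Levels were 36.5 and 33.8 CPM in TGFB1 and 40.2 and 38.4 CPM in GFP libraries, so both TGFB1 libraries lay below both GFP libraries. The difference was small and did not pass: the log2 fold change was -0.16 ± 0.191 (SE), with a 95% interval of -0.549 to 0.239 (edgeR adjusted p = 0.945). Groups of 2 failed to overlap in this direction for 18.3% of the 13598 genes tested.

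The reads assigned to Slc6a9 need not all be from that gene. On the other strand, Ccdc24 shares 1429 of the 5141 exon bases of Slc6a9 (27.8%), and the predicted gene Gm17114 lies wholly within it over 511 bases; whether reads were counted by strand is not given in the sources used here. Ccdc24 had 57 and 49 counts in TGFB1 non-microglia, and 64 and 41 in GFP non-microglia. Its counts were 35.96% to 50.89% of those of Slc6a9 in non-microglia and 21.2% to 81.8% in microglia. By the root mean square difference of centred log2 CPM over the 18 libraries, Ccdc24 was also the gene whose profile was most like that of Slc6a9 (0.413), ahead of Cd200 (0.558) and Arxes2 (0.610). All such profiles share the libraries and the gap between the sorted fractions.

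**Figure D2:**
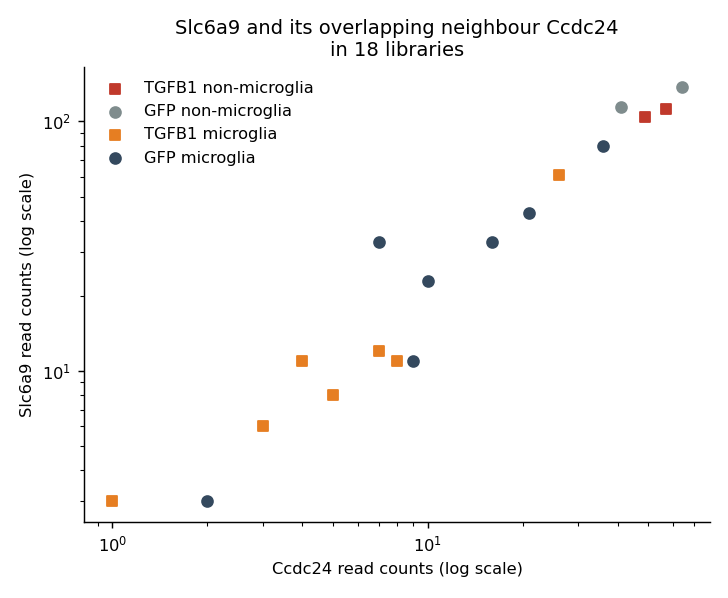
Read counts of Slc6a9 against those of its overlapping neighbour Ccdc24 (both log axes), 1 point for each of the 18 libraries, by group. Libraries high in one gene are high in the other, and the single TGFB1 microglia library far from its group (replicate 6) has 61 Slc6a9 and 26 Ccdc24 counts.

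Of the transcription factor genes, Pax6 was abundant and steady, Tfap2b was low, and Tfap2a was at the floor. Pax6 (ENSMUSG00000027168, chromosome 2, 105668900 to 105697364, plus strand) had 737 and 851 counts in TGFB1 non-microglia, against 934 and 822 in GFP non-microglia. The levels overlapped, with 240.4 and 276.5 CPM in TGFB1 and 274.4 and 276.8 CPM in GFP libraries. The log2 fold change was -0.09 ± 0.0953 (SE), and its 95% interval of -0.283 to 0.110 was the narrowest of the 4 genes tested (edgeR adjusted p = 0.940). Without TGFB1 replicate 1 the value was 0.01. Of the other cells that make Pax6, 9 Müller glia genes (Apoe left out) summed to 12344 ± 380.4 CPM in TGFB1 and 13977 ± 289.9 CPM in GFP non-microglia (SD, n = 2 each). The 5 horizontal cell genes summed to 163 ± 5.95 CPM in TGFB1 and 170.0 ± 1.53 CPM in GFP non-microglia (SD, n = 2 each). Septin4 alone gave 158 CPM of that mean sum in TGFB1 and 167 CPM in GFP. Only 1 of the 5 had more than 3 counts in every non-microglia library. The part of these cells in the Pax6 reads was not tested. The antisense gene Pax6os1 shares no exon base with Pax6, had 28 and 37 counts in TGFB1 and 48 and 40 in GFP non-microglia, and did not pass either (log2 fold change -0.38 ± 0.324, SE; edgeR adjusted p = 0.903).

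Tfap2b (ENSMUSG00000025927, chromosome 1, 19208914 to 19238576, plus strand), which encodes AP-2β, an AP-2 factor of amacrine and horizontal cells in the mouse, was the single gene of the 9 with a higher value in TGFB1 libraries and more than 3 counts in each library. It had 19 and 12 counts in TGFB1 non-microglia, against 8 and 4 in GFP non-microglia. The levels of 6.2 and 3.9 CPM in TGFB1 and 2.3 and 1.3 CPM in GFP libraries did not overlap, as was so in this direction for 18% of the genes tested. The log2 fold change was 1.42 ± 0.621 (SE), with a 95% interval of 0.138 to 2.70. Its unadjusted p was 0.0313, and it did not pass the correction over all genes (edgeR quasi-likelihood adjusted p = 0.583). Tfap2a (ENSMUSG00000021359, chromosome 13, 40715302 to 40738376, minus strand), which encodes the related AP-2α, had 0 and 0 counts in TGFB1 and 3 and 0 in GFP non-microglia.

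The markers of particular amacrine subtypes were at or close to the floor. Calb2 (ENSMUSG00000003657, chromosome 8, 110137502 to 110168210, minus strand), found in several amacrine and ganglion cell types, had 4 and 2 counts in TGFB1 non-microglia and 9 and 5 in GFP non-microglia. Th (ENSMUSG00000000214, chromosome 7, 142892752 to 142931128, minus strand), the defining enzyme of dopaminergic amacrine cells, had 3 and 0 counts in TGFB1 and 0 and 0 in GFP non-microglia. Neither entered the test. For Calb2 the TGFB1 libraries were the lower ones without overlap. Groups did so in this direction for 18.3% of the 13598 genes tested, which did not include Calb2. The counting intervals were also wide: the 4 counts of TGFB1 replicate 1 correspond to 1.30 CPM with a 95% Poisson interval of 0.355 to 3.34.

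In all, 0 of the 9 genes were called between TGFB1 and GFP non-microglia at an edgeR adjusted p under 0.05, where 0.39% of the 13598 genes tested were called, 0.338% higher and 0.0515% lower. Of the 9 genes, 4 passed the filter on low counts, and 1 of these (Tfap2b) had an unadjusted p under 0.05. DESeq2 and limma voom also called 0, with 0 genes at an unadjusted p under 0.05 in each. The median log2 fold change of the 4 was -0.12, and that of all genes tested was -0.000619. At the background share, no call among 4 genes is not a result about them. The CPM of the groups did not overlap for 2 of the 4 (Slc6a9 and Tfap2b), against 36.3% of all genes tested. The summed level of the 9 genes was 299 and 322 CPM in TGFB1 non-microglia and 346 and 327 CPM in GFP non-microglia, and without Pax6 and Slc6a9 it was 22.5 and 11.7 CPM in TGFB1 and 31.1 and 12.1 CPM in GFP non-microglia.

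Per kilobase of exon, which allows levels of different genes to be set side by side, the order was the same at the top in both treatments. Pax6 averaged 22.1 CPM per kb in TGFB1 and 23.6 in GFP non-microglia, Slc6a9 6.84 in TGFB1 and 7.65 in GFP, and Gad1 1.28 in TGFB1 and 2.01 in GFP. Pax6 and Slc6a9 did not overlap with each other or with any lower gene in any of the 4 libraries. Below them the neighbours did overlap: Tfap2b averaged 0.796 CPM per kb in TGFB1 and 0.292 in GFP, Calb2 0.561 in TGFB1 and 1.24 in GFP, and Gad2 0.138 in TGFB1 and 0.229 in GFP. For scale, the Müller glia gene Rlbp1, a retinaldehyde-binding protein picked from the marker lists as an example, averaged 630.5 CPM per kb in TGFB1 and 699.5 in GFP. Over lists, the median level in the 4 libraries was 0.544 CPM per kb for the 9 genes, against 0.428 for 8 ganglion cell genes, 29.7 for 10 bipolar genes and 289.6 for 10 Müller glia genes.

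**Figure D3:**
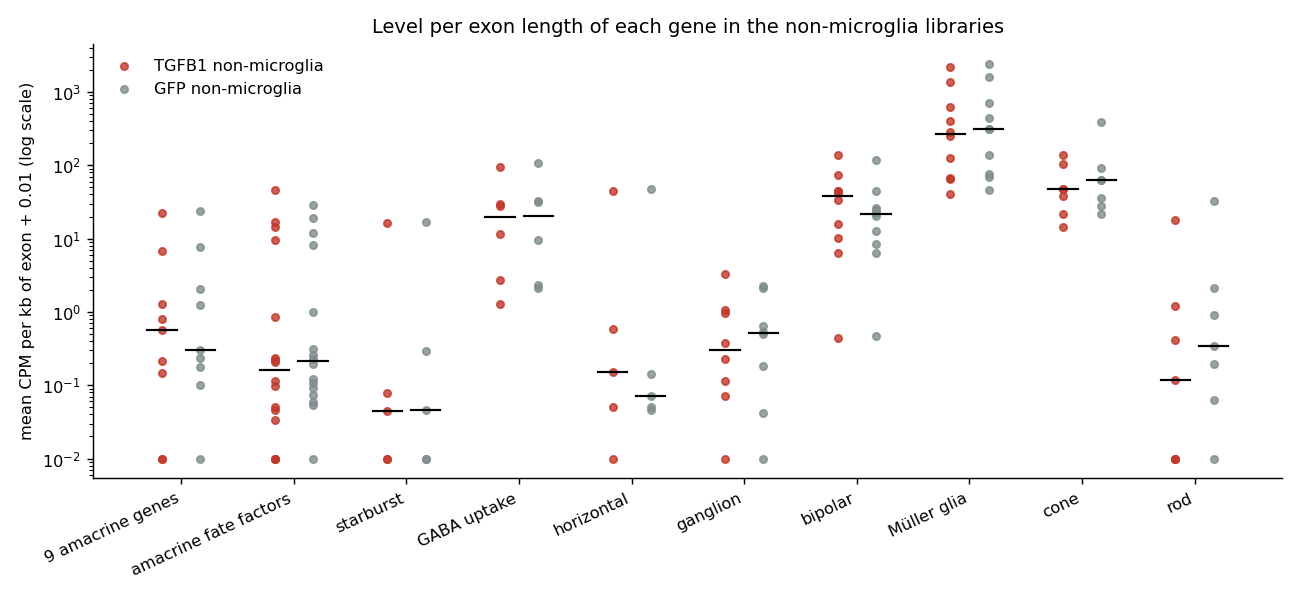
Mean CPM per kb of exon plus 0.01 (log axis) of each gene in TGFB1 and GFP non-microglia, 1 point a gene, grouped by list; black bars are list medians. The 9 amacrine genes span from the floor to 22.1 (TGFB1) and 23.6 (GFP) CPM per kb for Pax6, and most lie below the bipolar and Müller glia genes.

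Other amacrine genes were read from 6 lists with 46 genes in all. Of these, 19 had more than 3 counts in every non-microglia library and 8 were at 0 in all 4. The subtype lists differed in level. Of 5 starburst (cholinergic amacrine) genes, 3 had 3 or fewer counts in every non-microglia library and 2 of these were at 0 throughout, and of 9 peptide and nitric oxide genes, 4 were at 0 throughout. Of 6 dopamine genes, 3 (Spr, Pts and Slc18a2) were above 3 counts in every library and the median was 2.15 CPM per kb. These 3 were not called between GFP non-microglia and GFP microglia. In microglia the summed dopamine list was 103.4% (TGFB1) and 87.55% (GFP) of its non-microglia level. Of 4 AII and glycinergic genes, 2 were above 3 counts in every library, led by Dab1 at 16.1 CPM per kb. All 6 genes of GABA uptake and breakdown were instead above 3 counts in every library, with a median of 20.4 CPM per kb. This list includes transporters and enzymes that Müller glia are also known to make.

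Of the 46 genes, 17 passed the filter in non-microglia, and 1 was called higher and 0 lower, with a median log2 fold change of -0.06. The gene that rose was Neurod4, which encodes a basic helix-loop-helix factor of amacrine fate in the developing mouse retina that bipolar cells also use. It had 535 and 397 counts in TGFB1 non-microglia, against 323 and 287 in GFP non-microglia. Both TGFB1 libraries, with a mean of 152 ± 32.2 CPM, lay above both GFP libraries, with a mean of 95.8 ± 1.25 CPM (SD, n = 2 each). The groups failed to overlap in this direction for 18% of the 13598 genes tested. The log2 fold change was 0.67 ± 0.132 (SE; edgeR quasi-likelihood adjusted p = 0.0182). The call was lost with limma voom (adjusted p = 0.0551), in an edgeR fit of all 18 libraries (adjusted p = 1), and in edgeR without TGFB1 replicate 1 (0.44, adjusted p = 0.520). Bipolar markers moved in the same direction, with 6 of 9 tested called higher and summed levels of 1850.0 to 2096 CPM in TGFB1 and 1265.5 to 1326.5 CPM in GFP non-microglia. The part of bipolar cells in the Neurod4 value was not tested.

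The other 5 lists and the remaining fate genes gave no call. The homeobox gene Prox1, known from AII amacrine and bipolar cells, had a log2 fold change of 0.25 ± 0.124 (SE; edgeR adjusted p = 0.668). Megf10, a cell-surface receptor of starburst and horizontal cell spacing in the mouse that Müller glia also make, had -0.06 ± 0.114 (edgeR adjusted p = 0.974). Among dopamine genes, Pts, an enzyme of tetrahydrobiopterin synthesis, had -0.31 (edgeR adjusted p = 0.851) and Slc18a2, the vesicular monoamine transporter, -0.28 (edgeR adjusted p = 0.891). Abat, the GABA-degrading transaminase, had -0.19 ± 0.0942 (edgeR adjusted p = 0.663), and Slc38a1, a glutamine transporter, 0.25 (edgeR adjusted p = 0.762). Dab1, a reelin adaptor and AII amacrine marker, had 0.20 ± 0.114 (edgeR adjusted p = 0.762), and Npy, a neuropeptide, -0.25 ± 0.403 (edgeR adjusted p = 0.971).

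**Figure D4:**
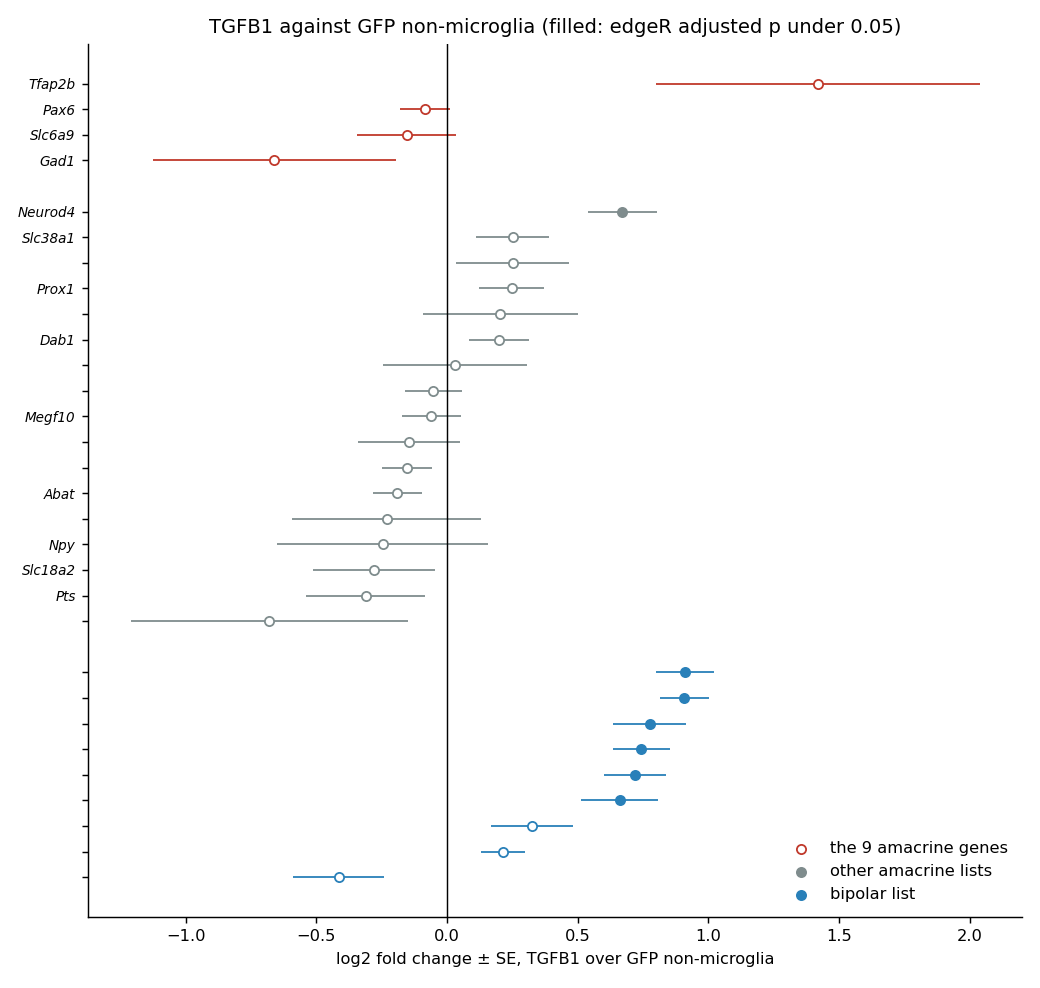
Log2 fold change of TGFB1 over GFP non-microglia with its SE for the amacrine genes that passed the filter and for bipolar genes, filled where the edgeR adjusted p is under 0.05; genes described in the text are labelled. Pax6 and Slc6a9 lie near 0, Gad1 at -0.66 and Tfap2b at 1.42 with wide error, all open, while 6 bipolar genes are filled to the right of 0.

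Set against microglia, Pax6 and Gad1 were higher in non-microglia, and Slc6a9 and Tfap2b did not pass; the other 5 genes were too low for the test. In the GFP libraries, Pax6 averaged 276 ± 1.74 CPM in non-microglia (SD, n = 2) and 5.998 ± 5.13 CPM in microglia (SD, n = 7), a log2 fold change of 5.59 ± 0.384 (SE; edgeR adjusted p = 1.91e-09). Gad1 averaged 15.4 ± 9.83 CPM in GFP non-microglia and 4.001 ± 3.21 CPM in GFP microglia, a log2 fold change of 1.97 ± 0.514 (edgeR adjusted p = 0.00178). The Gad1 call rested on GFP non-microglia replicate 1, without which the value was 1.06 (edgeR adjusted p = 0.230). Of the 15321 genes tested, 34.2% were called higher and 29.9% lower in GFP non-microglia, beside 2 of the 4. With the fractions fitted apart, all 4 passed the filter in non-microglia, but Slc6a9 alone did in microglia. Pax6 and Gad1 were too low for it there, so 2 of 4 tested is a description and not a result about the genes. With unscaled library totals 7531 genes were higher and 3119 lower, against 5245 higher and 4585 lower with scaling, and the median log2 fold change of all genes was 0.560, against 0.0591 with scaling. Pax6 and Gad1 were called higher under both.

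Slc6a9 and Tfap2b were not called between the fractions. Slc6a9 averaged 39.3 ± 1.31 CPM in GFP non-microglia and 15.9 ± 15.0 CPM in GFP microglia (SD, n = 2 and n = 7), a log2 fold change of 1.37 ± 0.871 (SE; edgeR adjusted p = 0.183). With limma voom it was 2.14 and passed (adjusted p = 0.000451). Tfap2b had -0.10 ± 0.924 (edgeR adjusted p = 0.934), and its sign depended on the setting. Of the 46 other amacrine genes, 20 passed the filter in this comparison, and 13 were called higher and 2 lower in GFP non-microglia. With the fractions fitted apart, 17 of the 46 passed in non-microglia and 8 in microglia. The 13 and 2 are thus a description and not a result about the genes. The higher ones included Megf10 (log2 fold change 5.64), Abat (5.22), Dab1 (5.08), Npy (5.08), Neurod4 (4.70) and Prox1 (3.28). The 2 lower ones, named after their values were seen, were Ebf3, a transcription factor (-2.92), and Gch1, the first enzyme of tetrahydrobiopterin synthesis, which microglia also use (-3.43).

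The profile most like that of Pax6 over the 18 libraries was that of Gpm6b, a neural membrane glycoprotein, with a root mean square difference of 0.453 in centred log2 CPM, followed by Gnao1, a G protein subunit (0.455), and Plekhb1 (0.455). For Gad1 the nearest were Depp1 (0.395), Slc6a20a (0.477) and Ttll7 (0.489). Depp1 had its highest count, 40, against 7, in the GFP non-microglia replicate where Gad1 was highest. Th did not pass the filter, so no profile was set beside it.

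In microglia, where the floor of 3 counts was 1.10 to 2.12 CPM, Slc6a9 had the widest spread in CPM, and its highest levels, 43.1 CPM in TGFB1 replicate 6 and 47.1 CPM in GFP replicate 2, were as high as in non-microglia. Slc6a9 ran from 3 to 61 counts in TGFB1 microglia, with a median of 11, and from 3 to 80 in GFP microglia, with a median of 33. The groups overlapped over most of their range. Slc6a9 alone passed the filter; its log2 fold change of TGFB1 over GFP was -0.85 ± 0.849 (SE), with a 95% interval of -2.70 to 0.994 (edgeR adjusted p = 0.923), where 0.31% of 10970 genes were called, 0.237% higher and 0.0729% lower. Single libraries set this value, which was -1.99 without TGFB1 microglia replicate 6 and -0.30 without GFP microglia replicate 2 (edgeR adjusted p = 0.507 and 0.968). Gad1 ran from 2 to 11 counts in TGFB1 microglia, with a median of 4, and from 3 to 20 in GFP microglia, with a median of 5. Pax6 ran from 3 to 15 counts in TGFB1 microglia, with a median of 8, and from 2 to 25 in GFP microglia, with a median of 14. Tfap2b had between 0 and 10 counts in TGFB1 microglia and between 0 and 12 in GFP microglia, Calb2 had between 2 and 8 counts in TGFB1 microglia and between 2 and 10 in GFP microglia, and Th had 0 counts in all but 1 GFP library with 1 count.

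The ratio of microglia to non-microglia differed between the genes. The mean CPM of Pax6 in microglia was 1.65% of that in non-microglia with TGFB1 and 2.18% with GFP. For Gad1 these shares were 23.9% with TGFB1 and 26.03% with GFP, and for Slc6a9 27.3% with TGFB1 and 40.4% with GFP. The Slc6a9 shares leaned on single libraries, left out after the data were seen: without TGFB1 microglia replicate 6 the share with TGFB1 was 11.5%, and without GFP microglia replicate 2 the share with GFP was 27.2%. Shares of the low-count genes had no common direction. Calb2 stood at 218% with TGFB1 and 116% with GFP, Tfap2b at 29.8% with TGFB1 and 113% with GFP, and Gad2 at 110.7% with TGFB1 and 48.1% with GFP. Without GFP microglia replicate 2, the GFP share was 67.7% for Tfap2b and 19.5% for Gad2. Tfap2a stood at 65.1% and Slc32a1 at 132.5% with GFP, or 31.4% for Tfap2a and 48.4% for Slc32a1 without that library, and Th had 0 counts in TGFB1 microglia. Summed bipolar genes in microglia were 2.32% (TGFB1) and 5.12% (GFP) of their non-microglia level, or 1.53% without TGFB1 microglia replicate 6 and 2.96% without GFP microglia replicate 2, and ganglion cell genes 157.5% (TGFB1) and 259.8% (GFP).

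The microglia libraries with the highest summed CPM of these genes in each treatment were also high for markers of other retinal cells. TGFB1 microglia replicate 6 had a summed level of the 9 genes of 63.5 CPM, against 8.60 to 18.3 CPM in the other TGFB1 microglia. The Müller glia sum without Apoe, which microglia also express, was 744 CPM in that library and had a median of 398.55 CPM over all TGFB1 microglia. GFP microglia replicate 2 had 87.2 CPM for the 9 genes, against 11.2 to 35.3 CPM in the other GFP microglia, with a Müller glia sum of 817 CPM against a group median of 497 CPM and a bipolar sum of 235 CPM against a median of 32.5 CPM. GFP microglia replicate 5 had the highest Müller glia sum, 896 CPM, with 35.3 CPM of the 9 genes. GFP microglia replicate 7 had a similar 34.2 CPM of the 9 genes, with a Müller glia sum at the group median and a bipolar sum of 27.1 CPM, below the median. The 3 libraries with the highest Müller glia sum were TGFB1 replicate 6 and GFP replicates 2 and 5. Leaving these out, a choice made after the data were seen, gave a log2 fold change of -1.29 for Slc6a9 in microglia (edgeR adjusted p = 0.672).

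**Figure D5:**
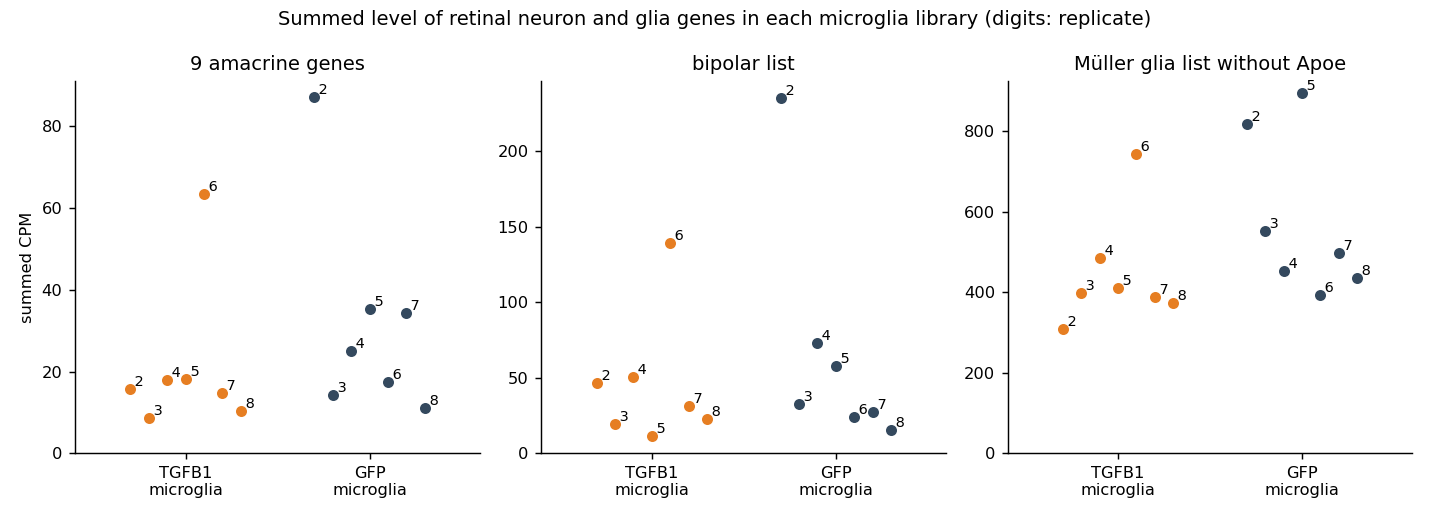
Summed CPM of the amacrine genes and of marker lists in each TGFB1 and GFP microglia library, 1 point a library labelled by its replicate number. TGFB1 replicate 6 (63.5 CPM) and GFP replicate 2 (87.2 CPM) stand above their groups for the 9 genes and are also high for the bipolar and Müller glia lists.

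The effect of TGFB1 was not shown to differ between the fractions for any of the 9 genes. The difference of the log2 effects, non-microglia minus microglia, was 0.09 for Gad1, 0.70 for Slc6a9, 1.75 for Tfap2b and 0.42 for Pax6, each with an edgeR adjusted p of 0.9999, where 0.0131% of 15321 genes were called. None of the 4 had an unadjusted p under 0.05 in edgeR, and 0 were called by DESeq2 or limma voom.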

How the data were processed

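The authors deposited a table of unnormalized read counts, with a row per Ensembl gene and a column for each of the 18 libraries. Per the submitters' processing notes, STAR, featureCounts, DESeq2 and GRCm38.p6 were used; their versions, the annotation and the strand setting are not stated there. Of 54532 identifiers, 54409 matched a symbol in GENCODE M21, which gave positions, exon lengths and overlaps. Groups came from the sample titles. Counts were fitted over all genes with edgeR 4.0.16 in R 4.3.3 (TMM, filterByExpr, robust quasi-likelihood F test). Genes were called where the p adjusted after Benjamini-Hochberg was under 0.05. The fits recovered changes in simulated counts, but power at the low or variable counts of the genes followed here was not tested. Non-microglia and microglia were fitted apart, and the fraction contrast and the difference of effects in 1 fit of 18 libraries. CPM used TMM-scaled sizes of that fit, which were 1.28 to 1.31 times the totals in non-microglia and 0.879 to 0.990 times in microglia. Poisson intervals (95%) and floors cover counting error only, as reads carry no molecular identifiers.

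The named genes were the 9, Tgfb1, every called gene of the other amacrine lists with the 2 smallest p where fewer were called, and the 3 most similar profiles to Gad1, Slc6a9, Pax6 and Th. The genes and lists were chosen with earlier results of these data known. Alternatives were RLE factors, no filter, no robust dispersion, DESeq2 1.42.0, limma voom 3.58.1, a replicate block, other sample sets, unscaled totals and leaving out each library.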

Additional observations from a re-analysis of the deposited data

Results flagged for a closer look

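Single libraries stood far from the rest of their group in microglia, where the gap to the nearest library was large against the range of the group. Of 19 groups tested, 10 were marked, all in the same pair of libraries. Chance alone marks about 1 in 20 groups, but these groups share libraries, the sum is mostly Slc6a9 and Pax6, and a single read among zeros is marked by construction, so the number marked is a description and not a test.

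TGFB1 microglia replicate 6 had 43.1 CPM of Slc6a9, against 6.12 CPM in the next library, 10.6 CPM of Pax6, against 4.38 CPM, and a sum over the 9 genes of 63.5 CPM, against 18.3 CPM. GFP microglia replicate 2 had 47.1 CPM of Slc6a9, against 16.2 CPM in the next library, 7.07 CPM of Tfap2b, against 2.63 CPM, and a sum of 87.2 CPM, against 35.3 CPM. The same GFP library had 2.95 CPM of Gad2, against 0.739 CPM, 2.95 CPM of Slc32a1, against 0.484 CPM, 1.18 CPM of Tfap2a, against 0.460 CPM, and 0.589 CPM of Th, against 0 CPM. Gad2 and Slc32a1 had 5 counts each there, Tfap2a 2 and Th 1, so these lie near the counting floor. The Müller glia sums of both libraries were high too, 744 CPM in TGFB1 microglia replicate 6 and 817 CPM in GFP microglia replicate 2; their part in these values was not tested.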

How the results depend on the processing

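No alternative brought any of the 9 genes that could be fitted past an adjusted p of 0.05 for TGFB1 against GFP in either fraction or for the difference of effects. Counts over all genes moved more. Non-microglia gave 86 higher and 16 lower without a filter on low counts, 29 and 4 with DESeq2, 89 and 20 with a replicate block and 4 and 0 in a fit of all 18 libraries; leaving out each library gave 22 to 87 higher and 6 to 33 lower. Microglia gave 25 lower without a filter, 13 lower with DESeq2, 41 higher and 19 lower with a replicate block, 11 and 4 in the fit of 18 libraries and 18 lower without the 3 libraries of highest Müller glia sum, an alternative chosen after seeing the data; leaving out each library gave 10 to 26 higher and 5 to 14 lower. The difference of effects gave 9 higher and 3 lower without a filter, 1 higher without robust dispersion, 1 lower with DESeq2 and with limma voom, and 1 higher with a replicate block; leaving out each library gave 1 to 2 higher and 0 to 1 lower. The fraction contrast gave 4368 to 5344 higher and 3944 to 4649 lower when each library was left out. The causes were not tested.

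Signs turned as follows. In non-microglia, leaving out a library gave Gad1 -1.32 to 0.21, Pax6 -0.19 to 0.0105, Megf10 -0.13 to 0.00819 and Lmo4 -0.0104 to 0.47. The Gad1 difference of effects was -0.19 with limma voom and ran from -0.56 to 0.98 when libraries were left out. Tfap2b between the fractions was 0.0144 with RLE factors, 0.59 with limma voom, 0.38 with unscaled totals and 1.65 in TGFB1 libraries (the last 2 chosen after seeing the data), and ran from -0.59 to 0.49 when each library was left out. With unscaled totals the 9 genes summed to 400.03 CPM in TGFB1 and 436 CPM in GFP non-microglia.

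The replicate numbers were not taken as pairs in the main fits. Same-numbered libraries had deviations correlated at -0.07 in non-microglia. In microglia only replicate 6 was negative (-0.122), the other numbers ran from 0.0929 to 0.216, and 2 of 7 matched their own number best. The counts with a replicate block are given above. No paired analysis was possible for the fraction contrast because the fractions share only 1 number.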
